A study of Mus musculus with 9 samples.

Results

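Gene expression of cells labelled neutrophils was set against that of cells labelled macrophages, over 4 of the 9 arrays of the series and 18193 genes. Each label had 2 arrays, taken by their titles, and each gene was represented by the probe set with 1 symbol and the highest mean over the 9 arrays. All 9 arrays held cells from lungs of female 4get mice on a BALB/c background, 6 to 8 weeks old, in which green fluorescent protein marks cells that express Il4. On each of 4 days every mouse had been given the cytokine IL-25 through the trachea, 0.5 µg in a volume of 50 µL, so no array held cells of untreated animals. Magnetic columns first enriched cells positive for CD11b, and 400000 cells were sorted from a pool of 4 donor mice for each array. The neutrophil gate took reporter-negative cells without the IL-5 receptor alpha chain or the macrophage antigen that Adgre1 encodes, low in MHC class II and positive for CD11b and Gr-1. The macrophage gate took reporter-negative cells without that receptor chain or Gr-1, and positive for the Adgre1 antigen, MHC class II and CD11b. The other arrays, 3 labelled T2M and 2 labelled eosinophils, entered the fit for the estimate of the spread.

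Neutrophils are short-lived granulocytes made in the bone marrow, which store antimicrobial proteins in granules before they leave it, follow CXC chemokines and bacterial products into inflamed tissue, and kill by phagocytosis and oxidants. Macrophages live longer, take up dying cells and particles, present antigen on MHC class II to a varying degree, and release chemokines and cytokines that call in other leukocytes. In type 2 inflammation, which IL-25 induces in the lung, the cytokines IL-4 and IL-13 drive macrophages to alternative activation, a state known for arginase, resistin-like and chitinase-like proteins and CC chemokines.

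Values are log2 expression levels per probe set, so a difference of 1 is a 2-fold difference. Levels are given in a fixed order, neutrophil-labelled replicates 1 and 2 and then macrophage-labelled replicates 1 and 2, and every difference is neutrophil-labelled minus macrophage-labelled. A gene was called higher or lower where limma's moderated test gave it an adjusted p under 0.05 (Benjamini-Hochberg, 18193 genes), and SE is the standard error from that fit. Array medians over all probe sets were near 5.5, no detection calls were used, and levels well below that are not shown to be above background, so no fold is given against them. A level of 1 probe set is not set against that of another gene. In cells sorted in bulk, a change in the share of contaminating cells and a change in RNA per cell cannot be told apart.

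The neutrophil-labelled arrays carried macrophage and MHC class II transcripts at or near the levels of the macrophage-labelled arrays, which goes against their gate. Csf1r, the receptor for the macrophage growth factor CSF-1, stood at 12.92 and 12.92 against 12.72 and 12.81, a difference of 0.16 (SE 0.40). Adgre1, whose antigen the neutrophil gate excluded, stood at 9.60 and 9.72 against 9.86 and 9.65 (-0.10, SE 0.40), a difference that turned to 0.049 after quantile normalization. Cd68, a lysosomal protein of macrophages, stood at 11.49 and 11.93 against 12.25 and 12.03 (-0.43, SE 0.40). The levels of the neutrophil-labelled and macrophage-labelled arrays thus lay within 1 of each other for these markers. Other labels carried these transcripts too. The mean of Csf1r was 12.85 on the T2M-labelled and 12.64 on the eosinophil-labelled arrays. For Adgre1 these means were 10.29 and 9.02, for Cd68 9.82 and 11.06, and for the class II gene H2-Ab1 11.70 and 10.47. Among the class II chains, H2-Ab1 stood at 12.66 and 13.17 against 13.11 and 13.27 (-0.27), H2-Aa differed by -0.12, H2-Eb1 by -0.68 and the invariant chain Cd74 by -0.13. Itgam, which encodes CD11b, differed by 0.89, Il4 by 0.72 and Il5ra, the receptor chain absent from both gates, by 1.35. Of 8 sorting genes measured, 0 were called in either direction over both neutrophil-labelled arrays by limma, and their median difference was -0.11. Over all genes 1.13% were called in each direction, so a list of 8 would hold few calls or none. The count of 0 is thus not a result about the sorting genes. Replicate 1 alone gave 1 called higher, and replicate 2 alone gave 0. The genes behind Gr-1 were not analysed here. Of the neutrophil markers S100a8 and Csf3r, the mean level was 13.75 and 12.39 on the arrays labelled eosinophils, above both neutrophil-labelled arrays, where S100a8 stood at 12.84 and 9.88 and Csf3r at 10.49 and 9.47. Whether labels or sorts were exchanged was not tested. Because of these levels, the groups are named by their labels throughout, and no array is taken as a pure population of the named cell type.

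Both neutrophil-labelled arrays departed from the macrophage-labelled arrays, but not to the same extent. Across 18193 genes the correlation between the neutrophil-labelled arrays was 0.922, and that between the macrophage-labelled arrays 0.995. Neutrophil-labelled replicate 2 correlated with the macrophage-labelled arrays at 0.952 and 0.952, above its correlation with its own partner, and replicate 1 at 0.883 and 0.888. Genes are not independent replicates, so these are descriptions. In all, 4109 genes differed by more than 1 between the neutrophil-labelled arrays and 32 between the macrophage-labelled arrays. From the macrophage-labelled mean, replicate 1 lay more than 1 away in 5297 genes and replicate 2 in 1882. The values do not show whether the macrophage-labelled arrays held 2 pools or RNA of 1 pool. Array medians lay between 5.48 and 5.61 for these 4 arrays. The interquartile range over genes was 2.83 and 3.70 on the neutrophil-labelled arrays and 3.91 and 3.79 on the macrophage-labelled arrays. On the T2M-labelled and eosinophil-labelled arrays it lay between 2.85 and 3.12, and the part of this difference in the results was not tested. The 3′ to 5′ difference of the Gapdh control probe sets, which grows with RNA breakdown, was 2.20 and 1.45 on the neutrophil-labelled arrays and 1.02 and 1.20 on the macrophage-labelled arrays, and its part in the results was not tested. The actin control probe sets lay between -0.10 and 0.03 on the same arrays.

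**Figure D1:**
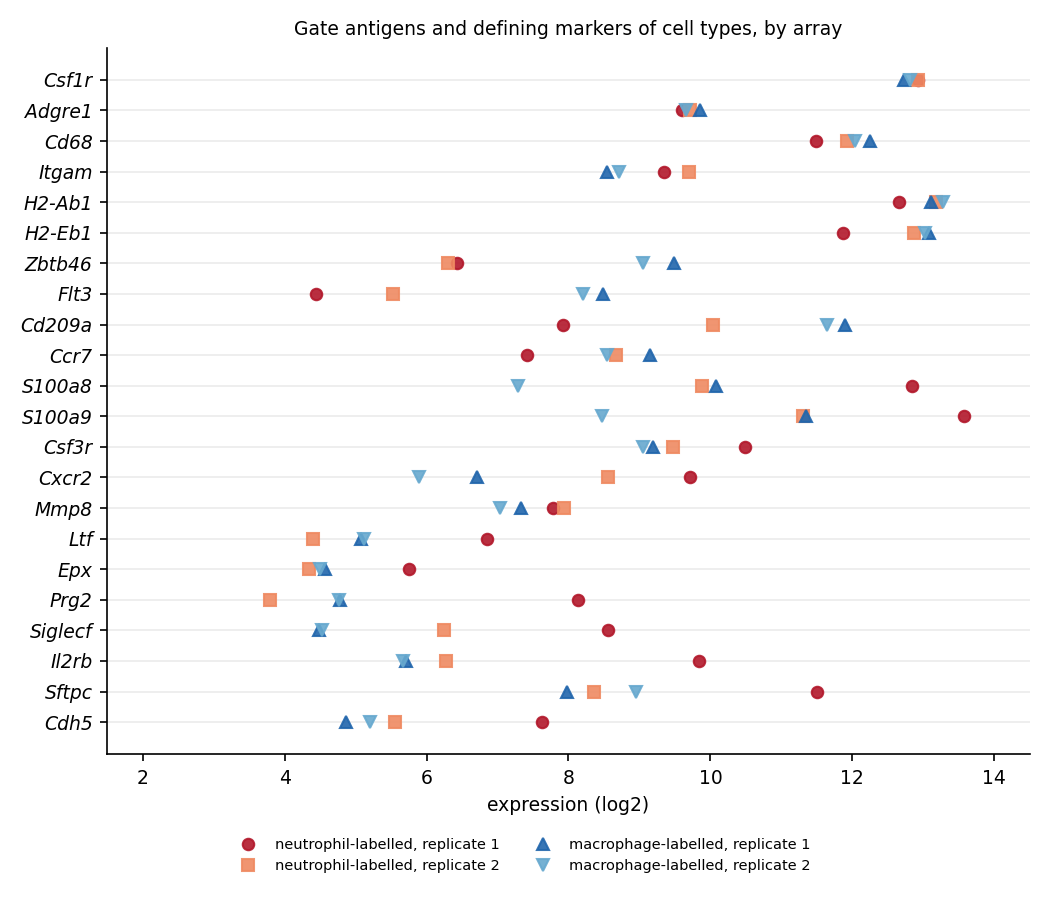
Expression level (log2, horizontal axis) of the genes behind the sorting antigens and of defining markers of several cell types, with 1 point for each of the 2 neutrophil-labelled (red and orange) and 2 macrophage-labelled (blue) arrays. Csf1r and Adgre1 overlap or lie close between labels, Zbtb46 and Flt3 are lower on both neutrophil-labelled arrays, and Prg2, Il2rb and Sftpc are high on neutrophil-labelled replicate 1 and near the macrophage-labelled arrays on replicate 2.

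Over both arrays, 206 genes were called higher in the neutrophil-labelled cells (1.13% of genes tested) and 206 lower (1.13%), together 2.26%. The arrays of the labels did not overlap for any of these 412 genes, but lack of overlap alone was common: 36.8% of all genes were higher and 23.1% lower on both neutrophil-labelled arrays than on either macrophage-labelled array, together 59.8%. Called differences ran from 1.08 to 6.92 in size among higher genes and from 1.09 to 5.80 among lower genes, and 154 and 120 of them were above 2. Of the 206 higher genes, the median distance from the macrophage-labelled mean was 2.67 on replicate 1 and 2.90 on replicate 2. Of the 206 lower genes it was -2.25 and -2.05. A test over both arrays favours genes on which they agree, so these medians are a description of the genes called. Over all genes the median difference was 0.22 on replicate 1 and 0.09 on replicate 2. Tested alone, replicate 1 gave 1604 higher (8.82%) and 1405 lower genes (7.72%), and replicate 2 gave 208 (1.14%) and 114 (0.627%). A test on 1 neutrophil-labelled array takes its spread from the other labels. Counts from 1 array alone in the lists below are to be read beside these shares of all genes. Of the 206 genes called higher over both arrays, 204 were called with replicate 1 alone and 136 with replicate 2 alone, and of the 206 lower genes 206 and 101. With the macrophage-labelled arrays counted as 1 sample, the counts fell to 57 higher and 27 lower, and a fit to the 4 arrays of these labels alone gave 92 and 59. Without macrophage-labelled replicate 1 they were 65 and 22, and without replicate 2 they were 45 and 30. Where a gene called higher had several probe sets, every probe set pointed the same way in 118 of 120 genes, and in 87 of 106 for genes called lower. This count is of direction alone, and sizes could differ widely. Differences ran from 0.06 to 5.36 over the probe sets of Inhba and from 0.33 to 3.60 for Nr4a2. For Gla they ran from 0.165 to 1.86 and for Adam23 from -4.20 to -0.60.

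**Figure D2:**
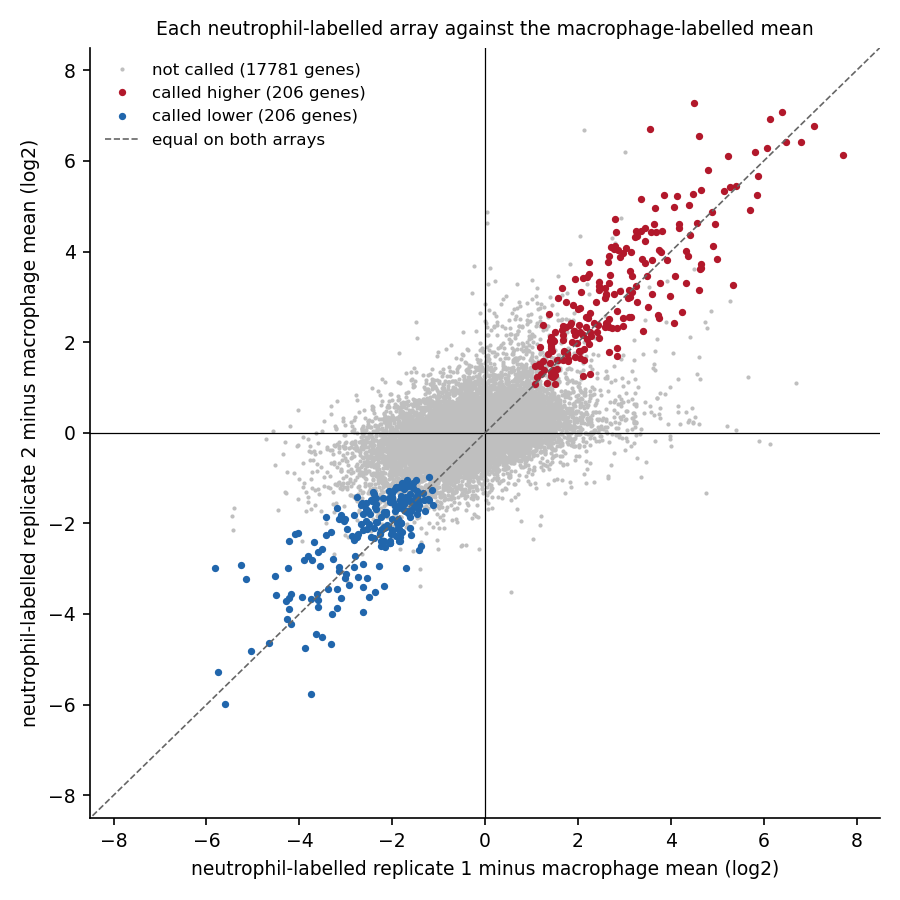
Distance of each gene from the macrophage-labelled mean (log2) on neutrophil-labelled replicate 1 (horizontal axis) and replicate 2 (vertical axis), with the 206 genes called higher in red, the 206 called lower in blue and the rest in grey. Called genes lie near the dashed line of equal difference, which a test over both arrays favours, and the grey cloud is wider along the axis of replicate 1 than along that of replicate 2.

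The largest difference upward was that of Slc7a2, which encodes a cationic amino acid transporter that imports arginine. It stood at 10.85 and 10.53 on the neutrophil-labelled arrays against 3.96 and 3.58 (6.92, SE 0.42, adjusted p = 0.000526). Arg1, which encodes arginase 1 and hydrolyses that arginine, stood at 10.67 and 11.47 against 4.56 and 4.50 (6.54, SE 0.31, adjusted p = 0.000347). Alox15, a lipoxygenase that oxidises arachidonic acid and linoleic acid, stood at 11.96 and 11.57 against 5.17 and 5.16 (6.60, SE 0.55). Mt2, a metallothionein that binds zinc, stood at 12.21 and 12.60 against 6.34 and 6.45 (6.01, SE 0.33). These genes were high on both neutrophil-labelled arrays and low on both macrophage-labelled arrays. Gja1, which encodes the gap junction protein connexin 43, was higher on replicate 2 (10.50) than on replicate 1 (7.73), against 3.24 and 3.20 (5.89, SE 1.13, adjusted p = 0.0375). Plet1, a surface protein, differed by 5.77 and Ednrb, an endothelin receptor, by 5.67. The other arrays of the series lay above the macrophage-labelled arrays for each of these genes as well. Mt2 stood between 10.92 and 11.81 on the T2M-labelled arrays and between 10.17 and 10.37 on the eosinophil-labelled arrays. Slc7a2 stood between 10.12 and 11.10 on the T2M-labelled arrays and between 8.45 and 9.38 on the eosinophil-labelled arrays. Arg1 stood between 9.88 and 10.38 and between 9.01 and 9.03, and Alox15 between 12.72 and 12.97 and between 8.91 and 10.90. In a comparison of these labels with the macrophage label, the macrophage-labelled arrays would be shared.

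**Figure D3:**
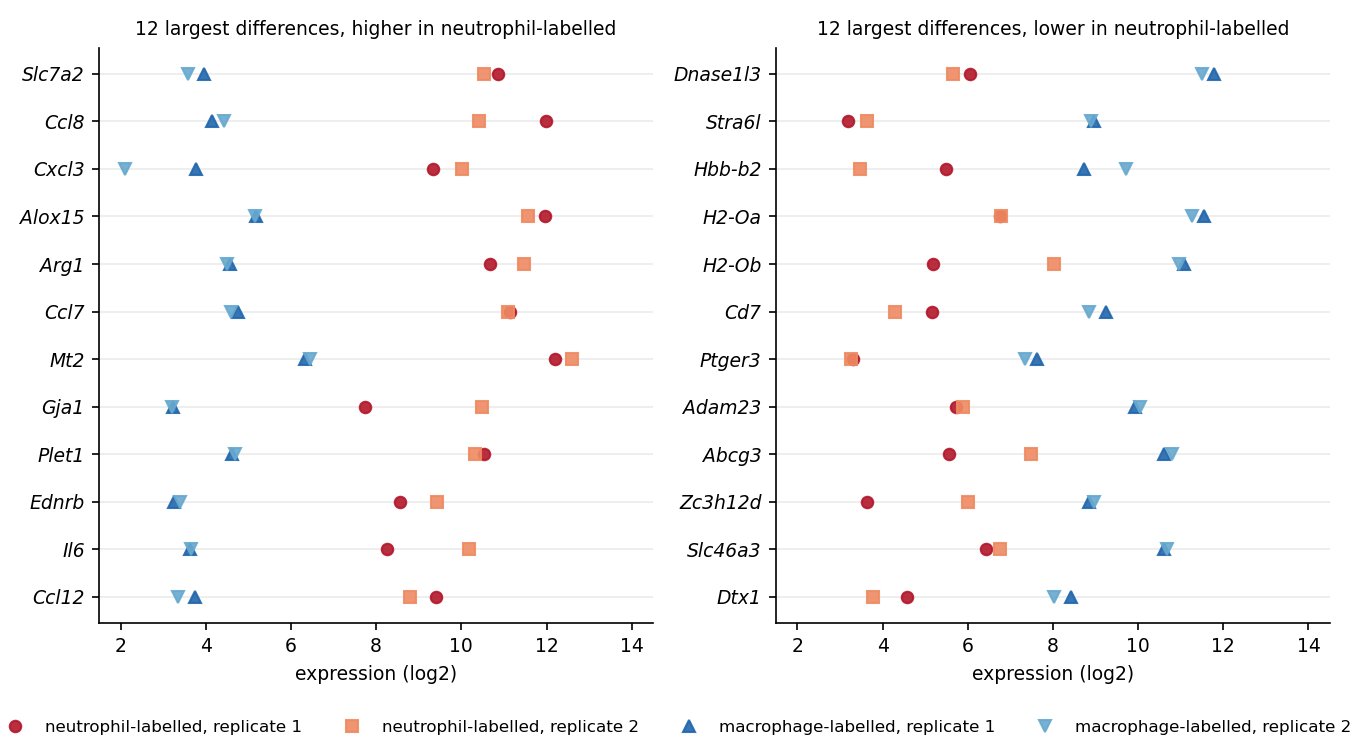
Expression level (log2, horizontal axis) of the 12 genes with the largest called differences upward (left) and downward (right), 1 point per array, with neutrophil-labelled arrays in red and orange and macrophage-labelled arrays in blue. The points of the labels do not overlap for any of the 24 genes, and Gja1, H2-Ob and Zc3h12d show the widest gaps between the neutrophil-labelled arrays.

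Chemokines held 4 of the 12 largest upward differences. The mean level over the chemokine list was 8.5 and 8.1 on the neutrophil-labelled arrays against 6.3 and 6.1. Other labels were near the former, with 8.0 to 8.3 on the T2M-labelled arrays and 8.2 and 8.1 on the eosinophil-labelled arrays. Of 34 chemokine genes measured, 9 were called higher, 0 lower and 25 were not called, and their median difference was 1.33, against 0.17 over all genes. With replicate 1 alone 17 were called higher and 1 lower, and with replicate 2 alone 9 were higher. On chromosome 11, where genes of monocyte-attracting CC chemokines lie side by side, Ccl2, Ccl7, Ccl12 and Ccl8 were called higher. Ccl8, a ligand of CCR8 in mice, stood at 11.98 and 10.40 against 4.14 and 4.42 (6.91, SE 0.53, adjusted p = 0.000716). Ccl7 stood at 11.15 and 11.10 against 4.76 and 4.59 (6.45, SE 0.46). Ccl12 stood at 9.40 and 8.81 against 3.75 and 3.35 (5.55, SE 0.86), and Ccl2, the main ligand of CCR2, at 12.07 and 11.74 against 7.30 and 6.96 (4.78, SE 0.34). The neighbouring Ccl11, the eotaxin that attracts eosinophils, stood at 7.60 on replicate 1 and 5.07 on replicate 2 against 4.64 and 5.11, and did not pass the test. Ccl3 and Ccl4, inflammatory chemokines further along the chromosome, gave 1.93 (SE 0.54, adjusted p = 0.127) and 2.23 (SE 0.57, adjusted p = 0.0961). Both stood higher on macrophage-labelled replicate 1 (9.56 and 8.22) than on replicate 2 (8.18 and 7.11). Ccl17, a ligand of CCR4 that IL-4 induces, stood at 12.75 and 12.93 against 7.56 and 7.65 (5.24, SE 0.53). Its partner Ccl22, at 9.52 and 8.95 against 5.75 and 5.45, did not pass (3.63, SE 0.81, adjusted p = 0.0645).

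On chromosome 5, Cxcl1, Cxcl2 and Cxcl3, which attract neutrophils through CXCR2, were called higher together with Pf4, while Cxcl5 (1.20), Ppbp (0.75) and Cxcl15 (1.67) did not pass. Cxcl3 stood at 9.33 and 10.01 against 3.78 and 2.11 (6.73, SE 0.53, adjusted p = 0.000761). Cxcl1 stood at 12.22 and 11.30 against 7.50 and 7.62 (4.19, SE 0.39), and Cxcl2 at 12.27 and 11.81 against 9.29 and 7.72 (3.54, SE 0.47). Pf4, platelet factor 4, which macrophages also make, stood at 10.47 and 9.68 against 4.57 and 4.96 (5.31, SE 0.47). Cxcl9, an interferon-gamma-induced ligand of CXCR3 on the same chromosome, did not pass. It stood at 4.15 on replicate 1 and 7.15 on replicate 2 against 7.67 and 7.15. Ccl2, Cxcl1 and Cxcl2 lie past the 5 largest called members of the list, and they, Ccl11, Cxcl9, Cxcl13, Cxcl15, Cxcl5 and Ppbp were chosen after their values were seen.

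**Figure D4:**
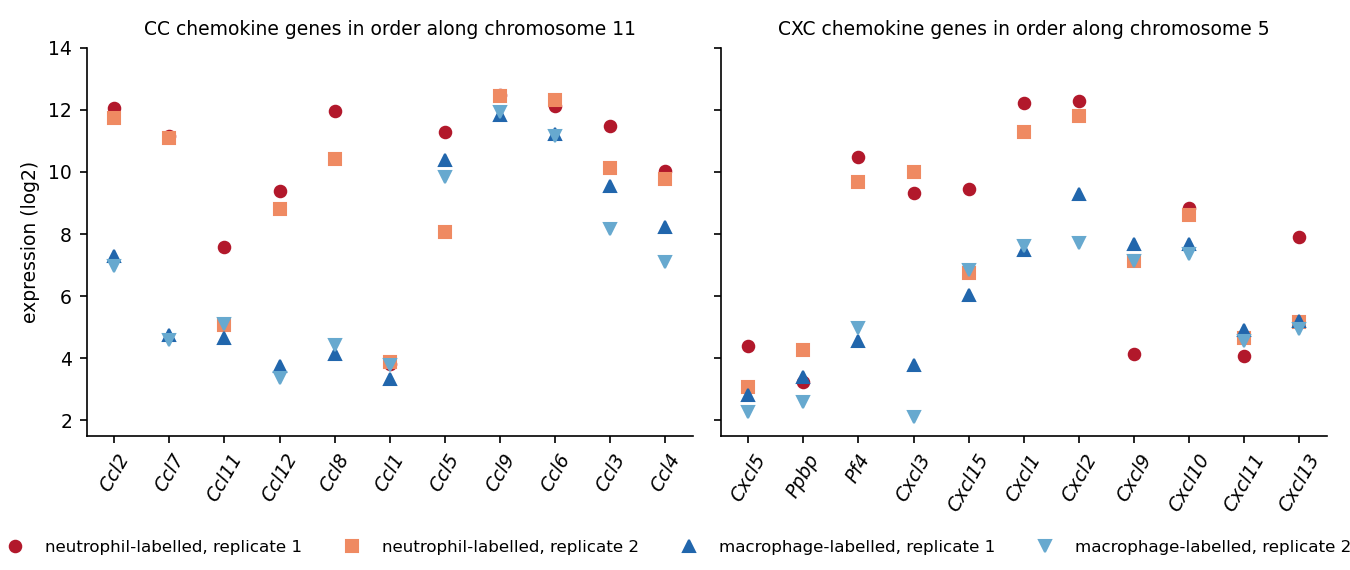
Expression level (log2, vertical axis) of CC chemokine genes in their order along chromosome 11 (left) and CXC chemokine genes along chromosome 5 (right), 1 point per array. Ccl2, Ccl7, Ccl12 and Ccl8, and Pf4, Cxcl3, Cxcl1 and Cxcl2, lie several log2 units higher on both neutrophil-labelled arrays, whereas Ccl11, Cxcl15 and Cxcl13 are high on replicate 1 alone.

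Sequence before the start of 6 called genes, picked after their values were seen, is shown because the CXC genes and Il6 share a stretch that transcription factors of inflammation are known to use, and Ccl17 and Retnla share one known from IL-4 signalling. RefSeq windows of assembly GRCm38.p6 were searched on both strands for 4 motifs, TGANTCA for AP-1, TTGCNNCAA for C/EBP, and the STAT6 and kappaB motifs by name. Each line gives the 250 bases before the annotated start, 5′ to 3′ on the plus strand, with motif matches in capitals. They lie at chr5:90890995-90891244 for Cxcl1, chr5:90903649-90903898 for Cxcl2, chr5:90785851-90786100 for Cxcl3, chr5:30012864-30013113 for Il6, chr8:94810203-94810452 for Ccl17 and chr16:48842359-48842608 for Retnla.
Cxcl1: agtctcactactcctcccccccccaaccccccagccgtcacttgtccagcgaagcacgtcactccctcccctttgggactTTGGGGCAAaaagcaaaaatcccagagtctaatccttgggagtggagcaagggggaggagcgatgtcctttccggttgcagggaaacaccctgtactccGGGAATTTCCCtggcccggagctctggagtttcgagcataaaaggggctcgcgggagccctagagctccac
Cxcl2: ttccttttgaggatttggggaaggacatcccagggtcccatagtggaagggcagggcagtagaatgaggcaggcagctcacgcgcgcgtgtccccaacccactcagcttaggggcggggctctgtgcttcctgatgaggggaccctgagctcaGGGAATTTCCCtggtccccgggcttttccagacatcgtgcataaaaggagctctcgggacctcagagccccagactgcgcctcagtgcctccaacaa
Cxcl3: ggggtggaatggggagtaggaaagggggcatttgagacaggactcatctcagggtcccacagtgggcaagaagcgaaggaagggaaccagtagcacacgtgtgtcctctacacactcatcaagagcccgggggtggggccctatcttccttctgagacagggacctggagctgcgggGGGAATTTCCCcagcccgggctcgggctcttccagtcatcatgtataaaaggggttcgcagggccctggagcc
Il6: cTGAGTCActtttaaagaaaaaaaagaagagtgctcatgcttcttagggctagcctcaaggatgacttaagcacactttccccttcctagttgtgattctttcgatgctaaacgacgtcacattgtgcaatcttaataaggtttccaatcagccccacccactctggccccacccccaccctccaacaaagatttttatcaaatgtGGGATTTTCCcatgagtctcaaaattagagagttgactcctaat
Ccl17: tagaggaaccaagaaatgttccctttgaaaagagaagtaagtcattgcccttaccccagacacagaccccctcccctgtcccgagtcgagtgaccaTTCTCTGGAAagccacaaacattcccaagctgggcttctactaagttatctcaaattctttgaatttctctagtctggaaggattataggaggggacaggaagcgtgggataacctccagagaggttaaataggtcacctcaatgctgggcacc
Retnla: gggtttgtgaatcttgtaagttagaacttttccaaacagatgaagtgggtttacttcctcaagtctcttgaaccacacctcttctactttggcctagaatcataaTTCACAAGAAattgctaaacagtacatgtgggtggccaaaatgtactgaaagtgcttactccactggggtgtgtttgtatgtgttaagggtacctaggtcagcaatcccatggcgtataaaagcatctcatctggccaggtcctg

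The same 11 capitals, which hold 2 overlapping kappaB matches, begin 71 bases before the start in Cxcl1, 97 in Cxcl2 and 73 in Cxcl3. Cxcl1 has a C/EBP match as well, 170 bases before the start. In Il6 the kappaB match begins 44 bases and the AP-1 match 249 bases before the start. The STAT6 motif begins 154 bases before the start in Ccl17 and 145 in Retnla. Over windows of 250 bases before to 50 after the start, a kappaB match was present in 16.8% of the 208 windows of genes called higher, 9.25% of the 227 windows of genes called lower and 9.98% of the 18106 windows of measured genes. For AP-1 these shares were 14.9%, 8.37% and 6.38%, for STAT6 7.69%, 5.73% and 5.87%, and for C/EBP 1.92%, 1.76% and 1.72%. The match is a description of letters, and binding was not measured.

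Of 23 chemokine receptor genes, 4 were called higher and 1 lower. Ccr1, a receptor for CCL3 and CCL7 on monocytes and neutrophils, stood at 9.27 and 9.97 against 4.97 and 4.27 (5.00, SE 0.40, adjusted p = 0.000792). Cxcr2, the receptor that guides neutrophils along CXCL1 and CXCL2, stood at 9.71 and 8.55 against 6.71 and 5.89 (2.83, SE 0.44). The complement anaphylatoxin receptors C3ar1 (3.01, SE 0.42) and C5ar1 (2.53, SE 0.23) were the others called higher. Ccr6, which responds to CCL20 and marks dendritic cells and lymphocytes, stood at 5.67 and 6.14 against 8.45 and 8.41 and was called lower (-2.53, SE 0.29). Cxcr5 (0.81) and Ackr3 (3.17, SE 0.97, adjusted p = 0.157) did not pass.

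Of the lists examined, alternative activation genes had the largest share called: 10 of 30 were higher and 0 lower, with a median difference of 1.63. Of the 9 secreted proteins 6 were higher, of the 4 enzymes and transporters 3, of the 7 regulators 1 and of the 10 receptors 0. Over all genes 1.13% were called in each direction, so 0 of 10 is not a result about the receptors. Among these 10, 6 had an unadjusted p under 0.05 in limma, and their median difference was 1.26. Mean levels of the secreted proteins were 11.70 and 11.66 against 8.04 and 7.93. Other labels lay above the macrophage-labelled arrays too, at 10.45 to 11.23 on the T2M-labelled and 10.12 and 10.24 on the eosinophil-labelled arrays. Enzymes and transporters stood at 11.09 and 11.18 against 5.89 and 5.73, and these other labels at 10.55 to 11.07 and at 9.53 and 9.25. For receptors and regulators, the other labels lay near or below the macrophage-labelled arrays. Besides the chemokines and Slc7a2, Arg1 and Alox15, the secreted resistin-like protein gene Retnla stood at 13.29 and 13.23 against 10.20 and 10.04 (3.15, SE 0.24, adjusted p = 0.000677). Chil3, a chitinase-like protein, stood at 12.63 and 12.44 against 10.73 and 10.96 (1.69, SE 0.32). Egr2, a transcription factor that IL-4 induces in macrophages, stood at 11.83 and 11.57 against 9.37 and 9.10 (2.46, SE 0.28). The surface receptors used as markers of the same state varied more. Mrc1, the mannose receptor, stood at 11.40 and 12.25 against 9.76 and 9.73 without passing (2.08, SE 0.60, adjusted p = 0.136). Cd163, the haemoglobin scavenger receptor, stood at 10.66 and 10.91 against 7.80 and 7.66 without passing (3.06, SE 0.82, adjusted p = 0.114). Cd209a, a C-type lectin, stood at 7.92 and 10.04 against 11.90 and 11.65 (-2.79, SE 0.65, adjusted p = 0.0759). Retnla and Il1rn, named below, were chosen after their values were seen. Of 14 genes of arginine and polyamine metabolism, 3 were called higher, Slc7a2, Arg1 and the mitochondrial arginase gene Arg2, which stood at 10.55 and 11.33 against 7.33 and 6.89 (3.83, SE 0.45). Odc1, which makes putrescine from the ornithine that arginases release, stood at 12.23 and 11.42 against 10.40 and 10.19 and did not pass (1.53, SE 0.36, adjusted p = 0.0788). Azin1 (1.18) and Ass1 (0.94) did not pass either.

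Of 28 proinflammatory cytokine and related genes, 7 were called higher and 1 lower. Their mean level was 7.8 and 8.0 on the neutrophil-labelled arrays against 6.7 and 6.4. It lay between 7.8 and 8.0 on the T2M-labelled arrays and at 9.0 and 9.1 on the eosinophil-labelled arrays. Il6 stood at 8.24 and 10.19 against 3.63 and 3.66 (5.57, SE 0.66, adjusted p = 0.00445). Osm, oncostatin M, a cytokine of the IL-6 family, stood at 10.95 and 11.01 against 7.08 and 5.68 (4.60, SE 0.71). Il1a stood at 8.37 and 7.60 against 3.91 and 3.02 (4.52, SE 0.40). The related Il1b differed less, at 12.49 and 12.58 against 10.91 and 10.67 (1.74, SE 0.22), and Il1rn, the secreted antagonist of the IL-1 receptor, stood at 11.92 and 12.21 against 9.04 and 8.46 (3.32, SE 0.29). Ptgs2, the inducible cyclooxygenase that starts prostaglandin synthesis, stood at 9.16 and 10.75 against 6.92 and 5.74 (3.63, SE 0.58). Il16, made by lymphocytes and attracting CD4-positive cells, stood at 5.68 and 5.44 against 8.86 and 8.90 and was called lower (-3.32, SE 0.39). Csf1, the growth factor that CSF1R binds, stood at 11.22 and 8.76 against 7.24 and 5.65 without passing (3.54, SE 0.76, adjusted p = 0.0567). Lif (2.58) and Il10 (2.02) did not pass. Il1b and Il16 lie outside the naming rule and were chosen after their values were seen. Of 24 genes of type 2 cytokines and their receptors, limma called 0 over both arrays, against 1.13% of all genes in each direction. Among the 24, 8 had an unadjusted p under 0.05, against 3384 of all 18193 genes. The list's largest differences were Il7r (3.52, SE 0.87, adjusted p = 0.0909), Il10 and Csf2 (1.94).

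Neutrophil genes moved unevenly. Of 25 measured, 6 were called higher and 0 lower, with a median of 2.66 on replicate 1 and 0.91 on replicate 2. Replicate 1 alone gave 13 called higher and replicate 2 alone 4. Of 10 surface receptors 5 were called and of 15 cytosolic proteins 1, with similar medians of 1.88 and 1.80. Trem1, which amplifies inflammatory signals in neutrophils and monocytes, stood at 9.46 and 10.09 against 5.60 and 4.53 (4.70, SE 0.66, adjusted p = 0.00949). The C-type lectins Clec4e and Clec4d, receptors for mycobacterial glycolipid shared by neutrophils and macrophages, differed by 4.38 (SE 0.32) and 4.14 (SE 0.46). Il1r2, the decoy receptor for IL-1, stood at 9.03 and 8.64 against 6.29 and 5.22 (3.08, SE 0.37). Mxd1, an antagonist of MYC, differed by 2.13 (SE 0.42) and was chosen after its value was seen. For each of these genes both neutrophil-labelled arrays lay above both macrophage-labelled arrays. The calprotectin genes differed between arrays of 1 label. S100a8, the most abundant cytosolic protein gene of neutrophils together with its partner, stood at 12.84 on replicate 1 and 9.88 on replicate 2 against 10.08 and 7.29 (2.67, SE 1.03, adjusted p = 0.237). S100a9 stood at 13.58 and 11.30 against 11.35 and 8.47 (2.53, SE 1.09, adjusted p = 0.266). For both genes, replicate 2 lay at about the level of macrophage-labelled replicate 1. Csf3r, the receptor for the growth factor G-CSF that defines the lineage, stood at 10.49 and 9.47 against 9.20 and 9.05 (0.86, SE 0.72, adjusted p = 0.49). Across the 25 neutrophil genes, macrophage-labelled replicate 1 lay above replicate 2 in 23, in 9 of them by more than 1. The mean level over the list was 9.34 and 8.02 on the neutrophil-labelled arrays against 7.28 and 6.48, and 11.45 and 11.82 on the eosinophil-labelled arrays.

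Of 21 neutrophil granule genes, limma called 0 over both arrays, against 1.13% of all genes in each direction. Mmp8, the neutrophil collagenase, stood at 7.78 and 7.94 against 7.33 and 7.04 (0.67, SE 0.57). Ltf, lactoferrin of the secondary granules, stood at 6.85 and 4.41 against 5.07 and 5.12 (0.53, SE 0.70), so that replicate 2 lay below the macrophage-labelled arrays. Lcn2, which captures bacterial siderophores, stood at 7.83 and 6.59 against 6.37 and 4.99 (1.53, SE 0.53), Mmp9 differed by 1.92 and Adam8 by 1.44, all without passing. The list's median was 0.86 on replicate 1 and 0.28 on replicate 2, against 0.22 and 0.09 over all genes. Of the 21 genes, 6 had an unadjusted p under 0.05, against 3384 of all 18193 genes.

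Macrophage and monocyte genes had 7 of 42 members called higher and 0 lower, with a median of 0.95 (0.34 on replicate 1 and 0.93 on replicate 2), and Csf1r, Adgre1 and Cd68, given above, did not pass. C1qb and C1qc, chains of the complement starter C1q that resident macrophages make, stood at 12.48 and 11.85 against 8.61 and 8.15 (3.78, SE 0.41) and at 11.88 and 10.85 against 7.82 and 7.28 (3.82, SE 0.44). C1qa stood at 9.39 and 9.09 against 6.14 and 5.58 without passing (3.38, SE 0.84, adjusted p = 0.0912). Cd14, the co-receptor for endotoxin, stood at 11.73 and 12.58 against 9.07 and 8.08 (3.58, SE 0.48), and Tlr4, the endotoxin receptor it serves, at 10.96 and 10.83 against 7.83 and 7.84 (3.06, SE 0.41, adjusted p = 0.00798). Tfec, a transcription factor that IL-4 induces in macrophages, differed by 3.08 (SE 0.43). Folr2 (2.40) and Ms4a7 (1.76), surface proteins of resident macrophages that were chosen after their values were seen, were called higher as well. Mertk, which binds dying cells through its ligand GAS6, stood at 8.04 and 8.85 against 6.03 and 5.57 without passing (2.65, SE 0.56, adjusted p = 0.056). Gas6 (2.88, SE 0.69) and Lyve1 (3.25, SE 0.87) did not pass. Fcgr1, a high-affinity Fc receptor, stood at 7.18 and 9.80 against 6.70 and 7.48, so that replicate 2 alone lay apart.

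Of 27 pattern recognition receptor genes 5 were higher, among them Clec5a (1.58, SE 0.27), while Clec4b1, at 6.43 and 9.54 against 10.22 and 10.08, did not pass (-2.16). Of 20 complement and Fc receptor genes 4 were higher, C1qb, C1qc and the anaphylatoxin receptors, and C1qa and Cfb (1.37) did not pass. Of 23 scavenger and uptake receptors 2 were higher, Olr1, a receptor for oxidised lipoprotein (2.83, SE 0.39), and the endocytic receptor Stab1 (2.37, SE 0.47). Of 33 lysosome genes 2 were higher, the protease Ctsl, at 11.49 and 11.70 against 7.79 and 8.00 (3.70, SE 0.31), and the galactosidase Gla (1.86, SE 0.32), and Ctsd (2.14, SE 1.18) did not pass. In the list that divides monocytes, 2 of 9 genes of classical monocytes were higher, Vcan, a matrix proteoglycan (3.50, SE 0.48), and Chil3, and 0 of 11 genes of patrolling monocytes were called. Among the latter, Eno3 (-1.97), Klf2 (-1.45) and Ace (-1.39) were below the macrophage-labelled arrays without passing, and the median of the patrolling genes was -0.96. Of these 11 genes, 6 had an unadjusted p under 0.05 in limma, and 1.13% of all genes were called in each direction.

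Genes known from alveolar macrophages were called higher in 7 of 26, with a median of 0.99. Their mean level was 8.3 and 8.1 on the neutrophil-labelled arrays against 6.8 and 6.8. Other labels were near the former, with 8.1 to 9.1 on the T2M-labelled arrays and 8.2 and 8.0 on the eosinophil-labelled arrays. Plet1 stood at 10.53 and 10.31 against 4.61 and 4.69 (5.77, SE 0.46), and Car4, a carbonic anhydrase, at 9.93 and 9.46 against 5.66 and 5.46 (4.14, SE 0.40). The mean of Car4 was higher still on the T2M-labelled (11.94) and eosinophil-labelled arrays (12.23). Fabp5, a fatty acid binding protein, stood at 12.17 and 12.16 against 8.74 and 8.63 (3.48, SE 0.32), and Abca1, which exports cholesterol, at 9.22 and 10.31 against 5.93 and 5.80 (3.90, SE 0.58). Of the defining genes of that cell type, Car4 was thus called, and Marco, Pparg and Siglecf were not. Marco, a scavenger receptor, stood at 6.14 and 5.96 against 6.02 and 6.10 (-0.01, SE 0.24), and Pparg, the lipid-sensing receptor, at 7.83 and 8.75 against 8.13 and 8.06 (0.19, SE 0.57). Siglecf, a sialic acid lectin shared with eosinophils, stood at 8.55 and 6.25 against 4.48 and 4.52 without passing (2.90, SE 0.77, adjusted p = 0.11). Of 22 lipid handling genes 2 were higher, Abca1 and Fabp5, while Dgat1 (1.78), Abcg1 (-1.37) and Lpl (1.32) did not pass. Lipid mediator genes had 3 of 25 higher, Alox15, Ptgs2 and Alox5, which starts leukotriene synthesis and stood at 9.47 and 7.81 against 5.37 and 5.42 (3.25, SE 0.49). Ptger3, a prostaglandin E2 receptor, stood at 3.30 and 3.25 against 7.62 and 7.34 and was called lower (-4.20, SE 0.46, adjusted p = 0.00353).

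Matrix proteases and their inhibitors were called higher in 5 of 19, with a median of 1.57. Their mean level was 9.0 and 9.0 on the neutrophil-labelled arrays against 7.2 and 7.1. It lay between 8.8 and 9.1 on the T2M-labelled arrays and at 8.7 and 9.1 on the eosinophil-labelled arrays. The interstitial proteases Mmp19, at 11.01 and 11.45 against 6.86 and 6.83 (4.38, SE 0.32), and Mmp13, at 6.51 and 6.71 against 3.04 and 2.42 (3.88, SE 0.44), were called together with Plau, the urokinase that activates plasminogen (2.59, SE 0.27). Serpinb2, which inhibits urokinase, stood at 9.54 and 8.39 against 4.74 and 4.36 (4.42, SE 0.47). Timp1, an inhibitor of metalloproteinases, stood at 8.42 on replicate 1 and 11.58 on replicate 2 against 4.58 and 5.16 (5.13, SE 0.91, adjusted p = 0.0278). A protease and its inhibitor were thus higher together for both families. Mmp14 (1.77, SE 0.40) and Adamts1 (1.76, SE 0.76) did not pass.

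Of 23 coagulation and tissue repair genes 6 were called higher and 0 lower. Their mean level was 8.8 and 8.9 on the neutrophil-labelled arrays against 7.1 and 7.0. It lay between 8.4 and 9.0 on the T2M-labelled arrays and at 8.3 and 8.1 on the eosinophil-labelled arrays. Hbegf, an epidermal growth factor receptor ligand, stood at 10.45 and 10.51 against 5.32 and 4.78 (5.43, SE 0.39, adjusted p = 0.000564). Inhba, a subunit of activin A, stood at 9.78 and 9.94 against 4.73 and 4.28 (5.36, SE 0.86), and Thbs1, thrombospondin 1, at 10.86 and 11.87 against 5.79 and 6.33 (5.30, SE 0.66). The other of the 2 probe sets of Inhba differed by only 0.06. Vegfa, the vascular growth factor, stood at 9.47 and 10.37 against 5.45 and 5.33 (4.53, SE 0.33). The clotting factor genes F7, at 9.21 and 10.28 against 6.10 and 5.44 (3.98, SE 0.42), and F5 (3.16, SE 0.57), chosen after its value was seen, were called higher, while F10 (1.49, SE 0.35), Pdgfa (1.47) and Gpnmb (2.93, SE 0.86) did not pass. Gpnmb stood at 10.01 on replicate 1 and 6.73 on replicate 2, against 5.51 and 5.38.

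**Figure D5:**
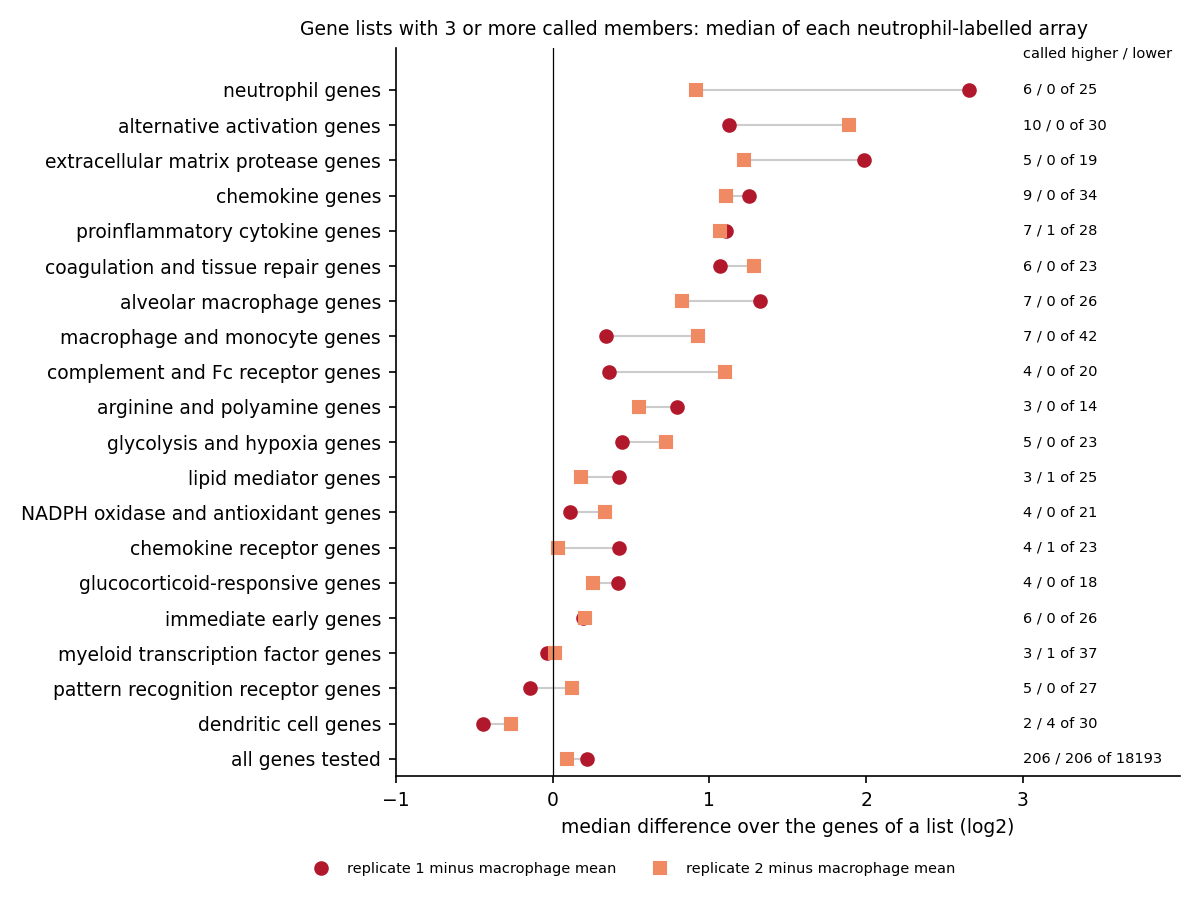
Median difference from the macrophage-labelled mean (log2, horizontal axis) over the measured genes of each list with 3 or more called members, for neutrophil-labelled replicate 1 (circle) and replicate 2 (square), with counts of genes called higher and lower at the right. The neutrophil list shows the widest gap between the arrays, 2.66 against 0.91, and the chemokine and cytokine lists nearly coincide.

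Genes of oxygen sensing and sugar uptake were called higher in 5 of 23. Slc2a1, the glucose transporter GLUT1, stood at 11.55 and 12.15 against 9.98 and 9.64 (2.04, SE 0.28), and Pfkp, a phosphofructokinase, at 10.85 and 10.91 against 8.71 and 8.78 (2.13, SE 0.24). Hif1a, the hypoxia-inducible factor, differed by 1.66 (SE 0.30) and Egln3, its hydroxylase and target, by 3.14 (SE 0.39). Slc2a3, another glucose transporter, stood at 7.42 and 7.89 against 9.27 and 8.77 without passing (-1.36, SE 0.32), and Slc16a3 (1.93) and Ndrg1 (1.55) did not pass. Of 21 oxidase and antioxidant genes, 4 of 15 antioxidant genes were higher and 0 of 6 oxidase subunits, against 1.13% of all genes. Slc7a11, the cystine transporter that feeds glutathione synthesis, stood at 8.15 and 9.02 against 4.88 and 4.27 (4.00, SE 0.40), and Srxn1, sulfiredoxin, at 9.13 and 9.60 against 6.15 and 5.88 (3.35, SE 0.29). Txnrd1 (1.71, SE 0.34) and Gpx3 (1.68, SE 0.34) were the others called, while Sod2 (1.22, adjusted p = 0.0567) and Hmox1 (1.25) did not pass. Of 18 genes that respond to glucocorticoids 4 were higher, the metallothioneins Mt2 and Mt1 (2.89, SE 0.42), Il1r2 and Hsd11b1, which reactivates corticosterone (1.35, SE 0.25). Tsc22d3 (-1.25) and Klf9 (1.35) did not pass, and metallothioneins also respond to zinc and cytokines.

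Immediate early genes, whose transcripts rise within minutes of stimulation and of tissue handling, were called higher in 6 of 26, with a median of 0.25, near that of all genes. The nuclear receptors Nr4a3, at 9.53 and 10.92 against 5.72 and 5.63 (4.55, SE 0.51), and Nr4a2 (3.60, SE 0.53), the AP-1 subunit Fosl2 (2.51, SE 0.27) and Egr2 were called together with Ier3 (2.14, SE 0.33) and Gadd45b (1.54, SE 0.30), the last chosen after its value was seen. Fosl1 (1.21) and Myc (0.91) did not pass. Of 37 myeloid transcription factor genes 3 were higher and 1 lower. Ets2 stood at 11.65 and 11.99 against 8.08 and 6.86 (4.35, SE 0.39), Vdr, the vitamin D receptor, at 9.47 and 10.56 against 6.21 and 6.27 (3.77, SE 0.61), and Tfec was given above. Spib, a relative of PU.1 known from B cells and plasmacytoid dendritic cells, stood at 6.00 and 5.76 against 8.03 and 7.71 (-1.99, SE 0.25). Maf (1.47, adjusted p = 0.0577) and Tfeb (-1.85) did not pass.

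In the opposite direction, several genes of dendritic cells and of antigen loading were lower in the neutrophil-labelled cells. Of 30 dendritic cell genes, 4 were called lower and 2 higher, with a median of -0.35. Zbtb46, a transcription factor that marks classical dendritic cells, stood at 6.44 and 6.30 against 9.48 and 9.05, a 7.44-fold difference (-2.90, SE 0.39, adjusted p = 0.00832). Flt3, the growth factor receptor their development needs, stood at 4.45 and 5.53 against 8.48 and 8.21 (-3.36, SE 0.40). Kit, the stem cell factor receptor, stood at 3.43 and 4.01 against 7.72 and 7.58 (-3.92, SE 0.40), and Dpp4, a surface peptidase, at 6.30 and 8.13 against 10.52 and 10.53 (-3.31, SE 0.54). Both neutrophil-labelled arrays lay below both macrophage-labelled arrays for these genes, Dpp4 least so on replicate 2. The other labels lay below the macrophage-labelled arrays as well. Means on the T2M-labelled and eosinophil-labelled arrays were 6.0 and 5.8 for Zbtb46 and 4.5 and 4.5 for Flt3. They were 5.8 and 4.2 for Kit and 6.4 and 6.3 for Dpp4. Ccr7, which guides dendritic cells to lymph nodes, stood at 7.41 and 8.67 against 9.15 and 8.54 (-0.81, SE 0.58). The members called higher were Ccl17 and the co-stimulatory gene Cd80 (2.08, SE 0.28), the latter chosen after its value was seen, and Cd83 (2.15, SE 0.47, adjusted p = 0.0622) did not pass.

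Of 16 genes of MHC class II presentation, limma called 0 higher and 2 lower, with replicate 1 alone 5 lower, and with replicate 2 alone 1 higher and 1 lower. H2-Oa, a chain of H2-O, which restrains peptide loading, stood at 6.75 and 6.78 against 11.56 and 11.26 (-4.65, SE 0.46, adjusted p = 0.00223). Its partner chain H2-Ob stood at 5.20 and 8.03 against 11.08 and 10.96 (-4.41, SE 0.89, adjusted p = 0.0461). The other labels lay below the macrophage-labelled arrays too. Means on the T2M-labelled and eosinophil-labelled arrays were 7.42 and 6.75 for H2-Oa and 4.79 and 8.68 for H2-Ob. Ciita, the master regulator of class II genes, stood at 7.65 and 9.73 against 11.33 and 11.31 without passing (-2.63, SE 0.68, adjusted p = 0.101). Rfx5 (-2.51, SE 0.78) and H2-DMb2 (-1.62, SE 0.71) did not pass. For Ciita, Rfx5 and H2-Ob, replicate 1 lay furthest from the macrophage-labelled arrays. The class II chains themselves had a median of -0.13 over 5 genes.

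Single lymphocyte genes were also among the lower genes, but their lists did not all lean that way. The median difference was -0.03 over the T cell and innate lymphoid list, -0.57 over the B cell list and 0.51 over the NK list. Cd4 stood at 7.71 and 6.36 against 11.18 and 10.88 (-3.99, SE 0.45, adjusted p = 0.00367), and Cd5 at 4.61 and 4.44 against 6.24 and 5.85 (-1.52, SE 0.27), while the T cell receptor complex gene Cd3e stood at 6.16 and 4.94 against 5.85 and 5.30 and Cd3d at 5.95 and 5.68 against 5.96 and 5.74. These 2 calls were those of 21 T cell and innate lymphoid genes, against 0 higher. Cd79b, a chain of the B cell receptor, stood at 5.39 and 5.86 against 8.35 and 7.97 and was the 1 gene of 13 on the B cell list called (-2.53, SE 0.35). Its partner Cd79a (-0.57) and Ms4a1, which encodes CD20 (0.29), did not pass. Igha, the constant region of IgA, stood at 8.81 and 9.38 against 12.93 and 13.26 (-4.00, SE 0.33) and was chosen after its values were seen. Ighm, the constant region of IgM, went the other way. It stood at 12.03 and 11.05 against 10.08 and 10.22 without passing (1.39, SE 0.65, adjusted p = 0.289). The differences of its 11 probe sets ran from -3.96 to 1.39. Jchain, which joins IgA molecules, differed by -2.62 (SE 1.08, adjusted p = 0.254). Klrd1, a lectin receptor of NK cells, stood at 5.16 and 3.96 against 7.59 and 7.10 (-2.79, SE 0.44), the 1 gene of 12 on the NK list called.

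By size, the genes lowest in the neutrophil-labelled cells were Dnase1l3 and Stra6l. Dnase1l3, a secreted nuclease of dendritic cells and macrophages that digests DNA of dying cells, stood at 6.05 and 5.65 against 11.78 and 11.50, a 55.6-fold difference (-5.80, SE 0.38, adjusted p = 0.000554). Stra6l, a retinol transporter gene, stood at 3.18 and 3.64 against 8.96 and 8.88 (-5.51, SE 0.38). Hbb-b2, a beta globin, stood at 5.49 and 3.47 against 8.73 and 9.72 (-4.75, SE 0.81), and transcripts of near-identical globin genes may bind its probes. Cd7, a lymphoid surface protein, stood at 5.17 and 4.28 against 9.23 and 8.84 (-4.31, SE 0.36). Adam23 (-4.20), Slc46a3 (-4.05), a lysosomal transporter, and Dtx1 (-4.04), a regulator of Notch signalling, were low on both neutrophil-labelled arrays alike. Abcg3 (5.56 and 7.48 against 10.61 and 10.80) and Zc3h12d (3.64 and 6.00 against 8.85 and 8.97), an RNase that restrains cytokine transcripts, lay lower on replicate 1 than on replicate 2. Dnase1l3 was low on the other arrays too. It stood between 5.73 and 6.82 on the former and between 6.34 and 6.71 on the latter, and Stra6l between 3.55 and 4.54 and between 3.43 and 4.10. Others of these genes were not, with Hbb-b2 between 5.77 and 8.03 on the T2M-labelled arrays and H2-Ob between 8.34 and 9.01 on the eosinophil-labelled arrays.

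With 1.13% of all genes called in each direction, a list of 29 genes or fewer would hold few calls or none. Several lists gave no call over both arrays by limma, which is thus not a result about their genes. These were interferon response genes (0 of 29, median -0.55), adhesion genes (0 of 19), sterol and fatty acid synthesis genes (0 of 20), NF-kappaB subunits and inhibitors (0 of 12), iron and heme handling genes (0 of 18), BCL2 family genes (0 of 12), cytosolic ribosomal protein genes (0 of 26) and respiratory chain genes (0 of 25). Unadjusted p-values under 0.05 numbered 9, 5, 1, 0, 7, 2, 1 and 0 in these lists, in the order given. Over all 18193 genes they numbered 3384. Of 29 cell cycle genes 1 was called, Ccnb2, at 7.53 and 8.20 against 5.94 and 5.76 (2.02, SE 0.38). Over the interferon response genes the median difference was -0.56 on replicate 1 and -0.42 on replicate 2, against 0.22 and 0.09 over all genes. Irf9, a subunit of the interferon-activated factor ISGF3, stood at 4.84 on replicate 1 and 8.59 on replicate 2 against 8.83 and 8.93 (-2.17, SE 0.95). Mcm7, a subunit of the replicative helicase, stood at 5.54 and 9.31 against 9.74 and 9.41 (-2.15, SE 1.00). In both genes replicate 2 lay near the macrophage-labelled arrays and replicate 1 far below.

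The neutrophil-labelled arrays differed from each other in genes of several other cell types. Between them, 1301 genes were higher by more than 1 on replicate 1 and 2808 on replicate 2. Prg2, major basic protein of eosinophils, stood at 8.14 on replicate 1 and 3.79 on replicate 2, against 4.78 and 4.76. Its mean was 9.88 on the T2M-labelled arrays and 5.99 on the eosinophil-labelled arrays. Epx, eosinophil peroxidase, stood at 5.75 and 4.34 against 4.57 and 4.50, and Ccr3, the eotaxin receptor, at 6.81 and 3.79 against 4.79 and 4.60. Over 13 eosinophil genes the median difference was 1.60 on replicate 1 and -0.12 on replicate 2, against 0.22 and 0.09 over all genes. Over both arrays Alox15 and Cd24a (1.71, SE 0.24) were called. Among NK cell genes, Il2rb, an IL-2 and IL-15 receptor chain, stood at 9.84 and 6.28 against 5.71 and 5.67, and the granzyme gene Gzmb at 9.31 and 6.07 against 5.63 and 5.70. Klrc1, an NK receptor, stood at 8.40 and 4.11 against 4.22 and 4.59. Over the 12 NK genes the median difference was 1.24 on replicate 1 and -0.19 on replicate 2. Gzmb was not low elsewhere, with a mean of 8.9 on the T2M-labelled arrays and 7.44 on the eosinophil-labelled arrays.

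Among the arrays of these 2 labels, some structural lung genes were also high on neutrophil-labelled replicate 1 alone. Other labels carried such transcripts too. The mean level over the 30 structural genes lay between 7.60 and 7.87 on the T2M-labelled arrays. It was 7.09 and 6.89 on the eosinophil-labelled arrays. Sftpc, surfactant protein C of alveolar epithelium, stood at 11.49 on replicate 1 and 8.36 on replicate 2 against 7.98 and 8.96. The endothelial genes Cdh5, at 7.63 and 5.56 against 4.86 and 5.21, and Tek, at 7.15 and 4.25 against 3.49 and 3.27, and the matrix gene Mgp, at 10.62 and 7.65 against 6.37 and 6.89, were likewise high on replicate 1. Others were not, with the epithelial gene Epcam at 6.77 and 8.00 against 8.47 and 8.03 and the collagen gene Col1a1 at 6.24 and 6.29 against 5.76 and 6.00. Of 30 epithelial, endothelial and stromal genes, 1 was called higher over both arrays, Cdh1, E-cadherin, which alternatively activated macrophages also make and which stood at 9.27 and 10.57 against 6.04 and 5.18 (4.31, SE 0.55). With replicate 1 alone 7 were called higher and 1 lower. The mean level over the 12 NK genes was 7.06 and 5.35 against 5.86 and 5.92, over the 13 eosinophil genes 7.42 and 6.11 against 5.51 and 5.41, and over the 30 structural genes 7.08 and 6.13 against 5.61 and 5.85. For the 15 mast cell and basophil genes it was 5.08 and 4.36 against 4.48 and 4.30, with Mcpt8 at 5.94 and 5.17 and Cpa3 at 4.54 and 4.00 on the neutrophil-labelled arrays. Hba-a2, an alpha globin, stood at 10.43 and 11.23 against 11.15 and 11.58. The part of cells of these types in the calls was not tested.

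By size of the gap between the arrays, replicate 1 was above replicate 2 most in Speer4cos (10.96 and 4.59), Slc17a6 (8.39 and 2.31), Prg4 (10.65 and 5.04), a lubricant of surfaces that peritoneal macrophages also make, Snhg14 (8.00 and 2.66), Dpysl3 (8.52 and 4.11) and Usp27x (10.03 and 5.62). Replicate 2 was above replicate 1 most in Fbp1, a gluconeogenic enzyme (5.28 and 10.11), Lage3 (3.52 and 8.11), Eml5 (3.43 and 8.03), Akr1c18 (3.69 and 8.27), Mucl1 (6.02 and 10.57), Gmps (4.25 and 8.79), Mff (5.61 and 9.96) and Smad7 (4.20 and 8.30). With 1 array on each side these gaps have no test. For Lage3, Eml5, Mff, Gmps and Smad7, replicate 2 lay within 1 of both macrophage-labelled arrays, and for Speer4cos, Slc17a6, Snhg14, Usp27x and Klrc1 it did so from the other side.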

How the data were processed

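RNA of sorted lung cells was amplified from 50 ng with Nugen Ovation kits and hybridised to Affymetrix arrays, per the labels' protocols. The authors deposited 1 table of log2 values for 9 arrays and 45101 probe sets. RMA, affy and limma are named in the submitters' processing notes, with settings and versions not given in the sources used here. RMA is meant to set array distributions alike, so a shift of all transcripts cannot be seen. The interquartile ranges over genes, given above, were not alike in the deposited values. No values were transformed. The 64 control probe sets, 932 with several symbols and 9160 with none in the platform annotation were left out, and of 34945 with 1 symbol, 34741 matched RefSeq by gene ID. Of 18193 genes, 9010 had more than 1 probe set. The number of columns of no sample was 0.

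Group means of all 9 arrays were fitted with limma 3.58.1 in R 4.3.3 (5 residual degrees of freedom, prior 3.26, prior SD 0.328), and the contrast was tested two-sided with eBayes and Benjamini-Hochberg adjustment at 0.05. The fit was tested on simulated data. Each replicate was a pool of donor mice. Precision is limited by 2 arrays per label, and the median SE was 0.337. Named genes are the sorting markers, the 12 called genes of largest difference upward and the 12 downward among those whose arrays do not overlap, from each of 43 lists up to 5 called members, up to 3 others and defining markers, and 8 genes in each direction between the neutrophil-labelled arrays. The comparison, members and lists were chosen with earlier results of these data known. Alternatives tried were the probe set per gene, a filter on dim genes, scaling, the arrays in the fit, the prior, array weights, a replicate block, a minimum fold and leaving out each array.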

Additional observations from a re-analysis of the deposited data

How the results depend on the processing

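Precision rests on 2 arrays per label, with macrophage-labelled arrays that differ little from each other. The 206 higher and 206 lower genes became 57 and 27 with those arrays averaged to 1 sample, and 92 and 59 with only the 4 arrays of both labels. A minimum 2-fold difference gave 65 and 32. Genes called lower numbered 330 with the mean of all probe sets of a gene and 117 among genes above the median level. Leaving out each array in turn, higher genes numbered 45 to 1604 and lower genes 22 to 1405. The lowest counts came without a macrophage-labelled array and the highest without neutrophil-labelled replicate 2, and an array left alone under its label is assumed to vary like the other labels. With the replicate number as a block, 142 genes were higher and 121 lower, and the deviations of same-numbered neutrophil-labelled and macrophage-labelled arrays correlated at -0.168. Between same-numbered T2M-labelled and eosinophil-labelled arrays, which enter the estimate of the spread, this correlation was 0.498 and 0.437, so a structure shared by number among those labels may be present. A crossed pairing, chosen after seeing the data, gave 177 and 152. A common median moved the median of all genes by -0.06 and quantile normalization by -0.13.

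Of the 245 genes named, Ighm aside, 131 were called. Of these, 50 were called under every one of the 12 processing alternatives, 0 reversed in any of them or without any array, and 72 were lost with the macrophage-labelled arrays averaged. Leaving out each array in turn, 48 of the 131 stayed called throughout, and 81 were lost without macrophage-labelled replicate 2. Of the 114 not called, 19 were called under some processing alternative and 67 without some array. Marco turned to 0.015 with the mean of probe sets and 0.040 with the most variable probe set, and Adgre1 to 0.049 with quantile normalization. Leaving out each array in turn, the sign changed only in genes that were not called, 20 in number, whose differences then ran as follows: Adgre1 -0.20 to 0.003, Ccr3 -0.90 to 2.12, Cd3d -0.17 to 0.11, Cd3e -0.64 to 0.58, Cxcr5 -0.003 to 1.63, Eml5 -4.56 to 0.037, Epx -0.19 to 1.22, Gmps -4.03 to 0.51, H2-Aa -0.51 to 0.26, Il4 -0.17 to 1.60, Klrc1 -0.30 to 4.00, Ltf -0.69 to 1.76, Marco -0.10 to 0.079, Mff -4.20 to 0.15, Ms4a1 -0.72 to 1.30, Pparg -0.27 to 0.65, Prg2 -0.98 to 3.37, Sftpc -0.11 to 3.02, Slc17a6 -0.19 to 5.90 and Speer4cos -0.25 to 6.13. The lowest and highest of each range came without a neutrophil-labelled array, except for Adgre1, where they came without a macrophage-labelled array, and the cause was not tested.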

Other observations

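Called genes that belong to no list above were looked through, and those named here were chosen after their values were seen. Cish, a suppressor of STAT5 signalling, stood at 10.66 and 10.56 against 7.10 and 6.40 (3.86, SE 0.39) and was called higher, as were the next genes. Socs3, which restrains signalling by the IL-6 receptor, stood at 11.95 and 11.21 against 8.65 and 8.25 (3.13), and Socs2 differed by 2.84. Rnase2a, an eosinophil-associated ribonuclease gene, stood at 12.91 and 12.90 against 8.34 and 7.73 (4.87), and transcripts of its close paralogs may bind the same probes. Dcstamp, needed for macrophage fusion, stood at 8.60 and 9.38 against 3.99 and 4.24 (4.87). Acod1, which makes itaconate, stood at 10.09 and 8.01 against 5.82 and 3.69 (4.30). The cell surface proteoglycan genes Sdc1 and Sdc4 differed by 4.12 and 3.60, and Sdc1 stood at 9.17 and 10.15 against 5.46 and 5.62. Pdpn (4.05), Aldh1a2, which makes retinoic acid (3.55), Cdkn1a, an inhibitor of the cell cycle (2.81), and Tgm2, a transglutaminase (2.14), were called higher as well.

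Among lower genes, Bcl11a, a transcription factor that plasmacytoid dendritic cells and B cells need, stood at 6.62 and 6.67 against 10.33 and 10.14 (-3.59). Ffar2, a receptor for short-chain fatty acids, stood at 7.59 and 6.91 against 10.81 and 10.73 (-3.52). The mean of Ffar2 on the T2M-labelled and eosinophil-labelled arrays was 10.21 and 11.41. Cyp27a1, which makes oxysterols, stood at 8.45 and 8.94 against 11.90 and 11.56 (-3.04). Gpr34, a receptor for lysophosphatidylserine (-4.04), Slamf7 (-3.26), Ccnd1, cyclin D1 (-3.10), Kmo, an enzyme of kynurenine breakdown (-3.04), Btla, an inhibitory receptor of lymphocytes (-3.01), Bcl6 (-2.65), Siglecg (-2.57) and Txnip (-2.31) were called lower too.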
